A study of Mus musculus with 16 samples.

Results

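The transcripts of 9 genes that carry or answer the NRF2 oxidative stress response were followed in the mouse retinal pigment epithelium (RPE), a single layer of pigmented cells that supports the photoreceptors. The 9 were chosen by function, but with earlier results of these data known, so counts among them are no independent test. They were the transcription factor gene Nfe2l2 (NRF2), its relative Nfe2l1 (NRF1), the repressor genes Keap1 and Bach1 and the dimer partner Mafg. The others were the KEAP1-binding autophagy receptor Sqstm1, the quinone reductase genes Nqo1 and Nqo2, and the stress-induced gene Osgin1. The 9 are part of the 51912 genes in the deposited table, and all 9 passed the filter on low counts. The tissue came from male C57BL/6 mice of 40 weeks that were wild type or SUCNR1 knockout (Sucnr1 encodes the receptor for succinate), and mice of each genotype were untreated or exposed to hydroquinone, an oxidant phenol whose dose and route the labels do not give. Each of the 4 groups had 4 libraries, each from 1 eye. By the titles the untreated groups came from 2 wild-type and 3 knockout mice and the hydroquinone groups from 4 mice each, because 3 untreated mice gave both eyes, whereas the labels' protocol states 4 animals per group. P-values over libraries therefore partly rest on eyes of the same mouse, and the calls are also given from a fit with both eyes added together. By the labels' protocol the tissue was dissected by hand after removal of the neural retina, so other cells of the eye can be present. The knockout allele is not described in the labels.

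As background, NRF2 protein is held low in unstressed cells because KEAP1 hands it to a CUL3 ubiquitin ligase. Electrophiles such as quinones modify cysteines of KEAP1, NRF2 then accumulates, pairs with a small MAF protein such as MAFG and binds antioxidant response elements in its target genes, while BACH1 competes for the same elements until heme displaces it. Most of this control acts on protein, so a transcript level of Nfe2l2 or Keap1 does not measure NRF2 activity. Hydroquinone is oxidised to benzoquinone, and NQO1 is a reductase that converts quinones back to hydroquinones.

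The start-site sequences are shown first, because Osgin1 and Nqo1 were the members that passed the test below and the element NRF2 binds is short enough to be searched for. RefSeq (GRCm38.p6) gave start-site windows for all 9 genes, 14 windows in all, and bases 250 to 31 before each start were searched on both strands. The core letters TGACNNNGC stood in the windows of 2 members, Nfe2l2 and Mafg, and in 8.70% of all 32851 windows of this length. The letters TGACTCA, an AP-1 site that also forms part of longer elements bound by NRF2 with a small MAF and that would match the first set too if GC followed, stood in the window of 1 member, Osgin1, and in 4.01% of all windows. TGACTCA was chosen for the search after the windows were seen, so its share over all windows does not test the Osgin1 match. The shares are also per window, whereas the members are counted per gene. The 6 remaining members, Nqo1 among them, had neither set of letters in these windows. The sequences are printed 5′ to 3′ in the direction of the gene, with the matched letters in capitals. The Osgin1 window lies at chr8:119436897-119437116 on the plus strand, inside an intron of 1 longer annotated Osgin1 transcript and upstream of the other annotated starts. The Nqo1 window lies at chr8:107403236-107403455 on the minus strand, upstream of the gene. The Nfe2l2 stretch lies at chr2:75704880-75704913 and the Mafg stretch at chr11:120633746-120633784, both on the minus strand, and the Mafg match reads on the other strand.
Osgin1: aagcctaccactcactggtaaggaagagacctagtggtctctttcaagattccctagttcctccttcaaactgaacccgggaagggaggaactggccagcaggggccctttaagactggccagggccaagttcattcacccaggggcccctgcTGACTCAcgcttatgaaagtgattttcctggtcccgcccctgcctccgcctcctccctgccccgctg
Nqo1: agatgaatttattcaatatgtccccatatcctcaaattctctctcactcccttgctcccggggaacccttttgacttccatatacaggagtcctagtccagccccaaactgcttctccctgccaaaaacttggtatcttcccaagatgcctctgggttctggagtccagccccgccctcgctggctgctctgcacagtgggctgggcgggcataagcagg
Nfe2l2: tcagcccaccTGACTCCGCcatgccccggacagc
Mafg: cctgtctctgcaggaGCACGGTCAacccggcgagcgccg
A match of letters is a description of the sequence, and a window without a match says only that these letters are not in it.

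Library totals ran from 21113549 to 35332444 counts, and levels are given as CPM, the counts of a gene per 1000000 counts of its library after TMM scaling. The tissue label was checked against 12 RPE markers. Of these, 11 had a median between 130.2 CPM (Mitf) and 8867 CPM (Ttr), while Best1 had a median of 2.04 CPM. The targeted gene Sucnr1 had 10, 17, 0 and 1 counts in the untreated wild-type libraries and 0, 0, 0 and 1 in the wild-type hydroquinone libraries. It had 0, 0, 3 and 0 counts in the untreated knockout libraries and 0, 0, 1 and 0 in the knockout hydroquinone libraries, so it was too low in all groups to check the genotype labels, which were used as given. Rod photoreceptor RNA varied most between libraries: the summed level of 15 rod markers ranged from 268 to 24340 CPM. The highest level, 24340 CPM, was that of replicate 4 of untreated knockout, against 367 to 4188 CPM in the others of its group. That untreated library had the lowest value of its group for 5 of the 9 genes. The level was 22220 CPM in replicate 1 of knockout with hydroquinone, against 268 to 387.1 CPM in the other 3 libraries of that group. The name rod-rich library below means this treated library alone. Knockout values of Osgin1, Nqo1, Bach1 and Sqstm1 are also given without it, and most other results only with it. For these 4 genes the range with any 1 library left out is given as well. In bulk tissue, fewer cells of a type and less RNA per cell cannot be told apart.

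Levels of different genes were compared per kilobase (kb) of exon. Sqstm1 was highest on average at 140.7 ± 24.6 CPM per kb, followed by Nfe2l1 at 91.2 ± 9.0 and Nqo1 at 76.2 ± 21.4 (SD, n = 16 libraries), and the ranges of these neighbours touched or overlapped, at 106.9 to 188.2, 74.0 to 107.0 and 48.0 to 113.4 CPM per kb. Nfe2l2 (21.2 ± 3.2), Keap1 (16.6 ± 1.9) and Mafg (12.6 ± 1.6 CPM per kb) were next, and Osgin1 (10.1 ± 4.5), Nqo2 (9.30 ± 0.93) and Bach1 (7.62 ± 1.64) were lowest. Neighbours overlapped among these 6 as well, whereas the lowest Nqo1 value stood above the highest Nfe2l2 value of 26.3 CPM per kb. Across libraries Osgin1 varied most, 3.44-fold from lowest to highest, and Nqo2 least, 1.39-fold.

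The first comparison asked which of the genes differ under oxidative stress. Averaged over genotype, 2 of the 9 genes rose, Osgin1 and Nqo1, and none fell (edgeR quasi-likelihood test, adjusted p below 0.05 over 15380 genes). Over all tested genes the share called was 0.0845%, and the share called higher was 0.0715%. At an unadjusted p below 0.05, 4 of the 9 were higher (Osgin1, Nqo1, Sqstm1 and Bach1), against 2.75% of all genes. Osgin1 had the second smallest p-value of the 15380 genes, Nqo1 was number 10, Sqstm1 number 29 and Bach1 number 39. The 9 genes had a median log2 fold change of 0.18, with 7 of 9 above 0, against a median of 0.0046 and 51.2% above 0 over all tested genes.

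**Figure D1:**
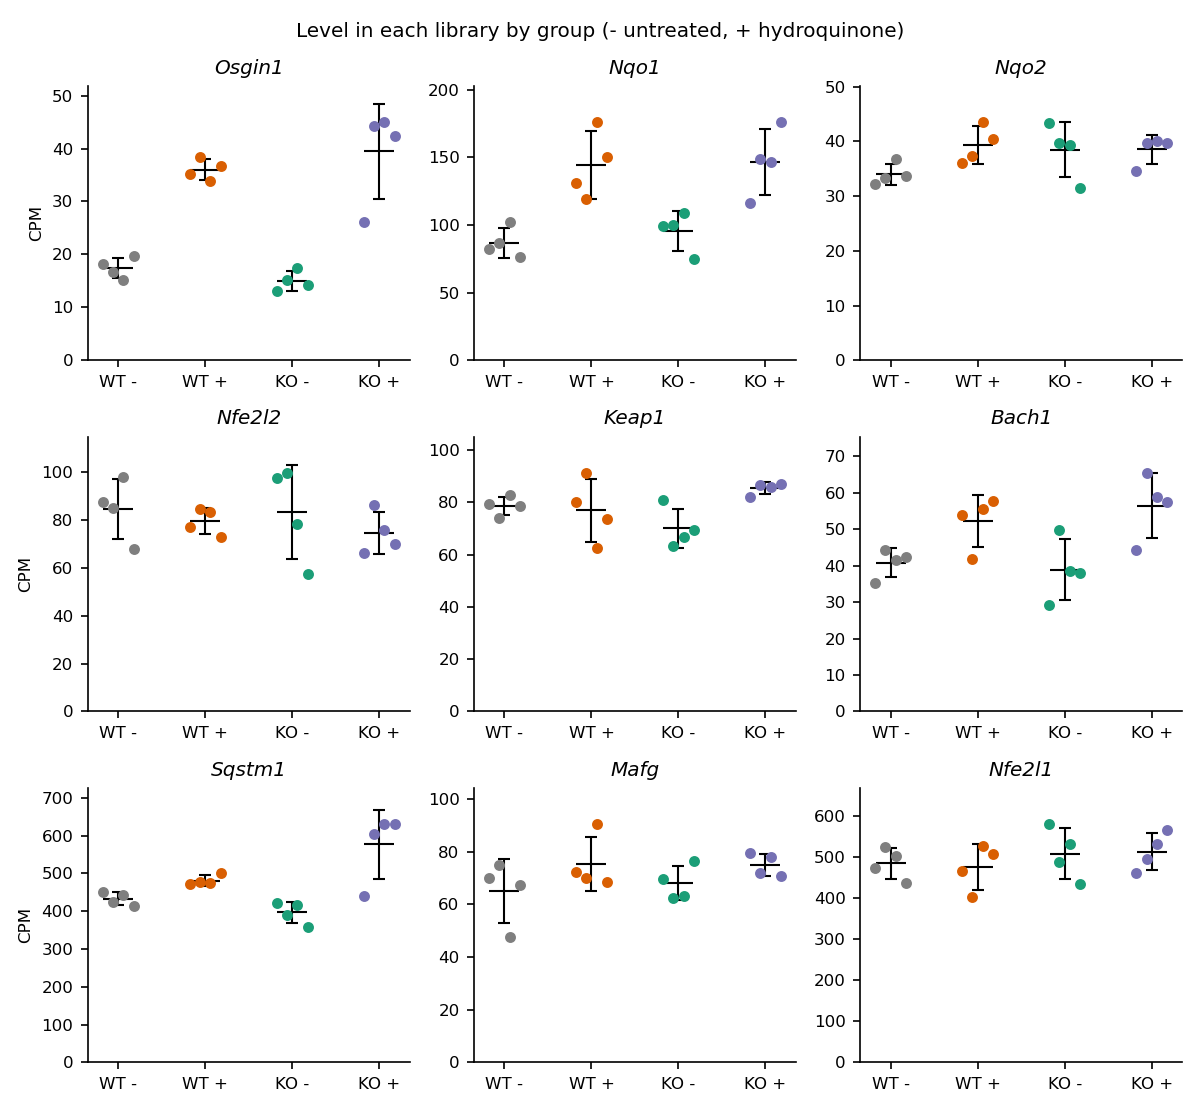
Level of each gene in CPM (vertical axes, from 0) in every library of the 4 groups, where WT is wild type, KO is Sucnr1 knockout, - is untreated and + is hydroquinone, with points for libraries and black bars for the mean and SD of 4 libraries. Osgin1 and Nqo1 were higher in all 8 hydroquinone libraries than in all 8 untreated libraries, while Nfe2l2, Nfe2l1 and Mafg overlapped between treatments in both genotypes.

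Osgin1 (ENSMUSG00000074063, chromosome 8, 119434124 to 119446256, plus strand, GRCm38, GENCODE vM21) encodes oxidative stress induced growth inhibitor 1, a known NRF2 target. It stood at 18.2, 16.7, 15.2 and 19.7 CPM in the untreated wild-type libraries and at 35.3, 38.3, 33.8 and 36.7 CPM with hydroquinone. The knockout values were 13.1, 15.3, 17.5 and 14.3 CPM untreated and 26.2, 44.2, 45.0 and 42.3 CPM with hydroquinone. No hydroquinone library overlapped an untreated one, in either genotype or across them. The lowest hydroquinone value, 26.2 CPM, was that of the rod-rich replicate 1 of the knockout.

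Averaged over genotype Osgin1 was 2.33-fold higher with hydroquinone (log2 fold change 1.22, SE 0.11, edgeR adjusted p = 1.3e-04). It passed in all 9 alternatives that kept both identifier forms, with values from 1.14 to 1.24, among them the fit with both eyes added together (1.22, SE 0.13, edgeR adjusted p = 0.0058). In the knockout it rose by 1.39 (SE 0.16, edgeR adjusted p = 0.0022, and 0.019 with both eyes added together), where 0.0455% of all genes were called and 0.0325% were called higher. That call was lost when only the knockout groups were fitted (1.37, edgeR adjusted p = 0.302). In wild type its log2 fold change was 1.05 (SE 0.16) and did not pass (edgeR adjusted p = 0.060). The wild-type value passed in 5 of 10 alternatives, DESeq2, limma (blocked on mouse), median-of-ratios scaling, the identifier form as covariate and the rod score as covariate, and did not pass with summed eyes (1.06, edgeR adjusted p = 1.00). Leaving out the rod-rich knockout library gave 1.54 in the knockout and, through the shared estimate of spread, an edgeR adjusted p of 0.0014 in wild type at the same log2 fold change of 1.05. With any 1 library left out, the Osgin1 knockout value ran from 1.301 to 1.545.

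The sequencing identifiers in the sample descriptions have 2 forms, with a sample number that is plain or holds a letter, and each of the 3 mice with both eyes had 1 eye of each form. Each group had 2 libraries of each form, except that wild type with hydroquinone had 3 plain and 1 lettered, and what the forms mark is not given in the labels. In the plain-numbered libraries Osgin1 differed by 1.18 averaged over genotype, and in the lettered ones by 1.24. Neither subset passed on its own (edgeR adjusted p = 0.999 and 0.116), and in the second the lone wild-type hydroquinone library was assumed to vary like the other groups.

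Nqo1 (ENSMUSG00000003849, chromosome 8, 107388225 to 107403206, minus strand) encodes NAD(P)H quinone dehydrogenase 1, the 2-electron quinone reductase. It stood at 82.4, 87.0, 102.1 and 76.3 CPM in untreated wild type and at 131.2, 119.1, 176.2 and 150.2 CPM with hydroquinone. In knockout libraries it was at 99.2, 99.98, 108.5 and 74.6 CPM untreated and at 116.4, 148.5, 146.3 and 175.9 CPM with hydroquinone. All 8 hydroquinone libraries were again above all 8 untreated ones, with 108.5 and 116.4 CPM as the nearest values. Of all tested genes, 0.0715% were higher in every hydroquinone library than in every untreated one, and 0.0325% were lower in every one.

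Averaged over genotype Nqo1 was 1.60-fold higher (log2 fold change 0.67, SE 0.11, edgeR adjusted p = 0.032). This call was near the threshold. It was lost with both eyes added together (0.70, SE 0.13, edgeR adjusted p = 0.293), with eye side as covariate (0.67, edgeR adjusted p = 0.073), without the 2 libraries with fewest detected genes (0.71, edgeR adjusted p = 0.066, an alternative added after seeing the data), and when any 1 of 13 libraries was left out (0.62 to 0.71, edgeR adjusted p = 0.057 to 0.099). It held in the 3 fits that left out untreated wild-type replicate 3, wild-type hydroquinone replicate 2 or the rod-rich knockout library. Within a genotype Nqo1 did not pass, with values of 0.73 (SE 0.16, edgeR adjusted p = 0.440) in wild type and 0.62 (SE 0.16, edgeR adjusted p = 0.938) in the knockout. Without the rod-rich library the knockout value was 0.71 (SE 0.16, edgeR adjusted p = 0.262). With any 1 library left out, the knockout value ran from 0.50 to 0.71. Among plain-numbered and lettered libraries the average difference was 0.49 and 0.85.

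Nqo2 (ENSMUSG00000046949, chromosome 13, 33964687 to 33988443, plus strand) encodes the sister reductase, which takes electrons from dihydronicotinamide riboside rather than NAD(P)H. Its levels were 32.2 to 36.8 CPM in untreated wild type and 36.0 to 43.6 CPM with hydroquinone, and 31.4 to 43.3 and 34.6 to 40.2 CPM in the knockout. The groups overlapped, and its log2 fold change averaged over genotype was 0.11 (SE 0.07, edgeR adjusted p = 0.914). Nqo2 shares 762 exon bases with Serpinb6a on the opposite strand, which averaged 4476 counts against 1009 for Nqo2, so without a stated strand setting some of its reads may belong to Serpinb6a. The ratio of Nqo1 to Nqo2 within a library, which does not depend on library scaling, was 2.26 to 2.78 in untreated and 3.198 to 4.43 in hydroquinone libraries, without overlap. Nqo1 alone already separated these libraries, so the ratio is no independent result.

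**Figure D2:**
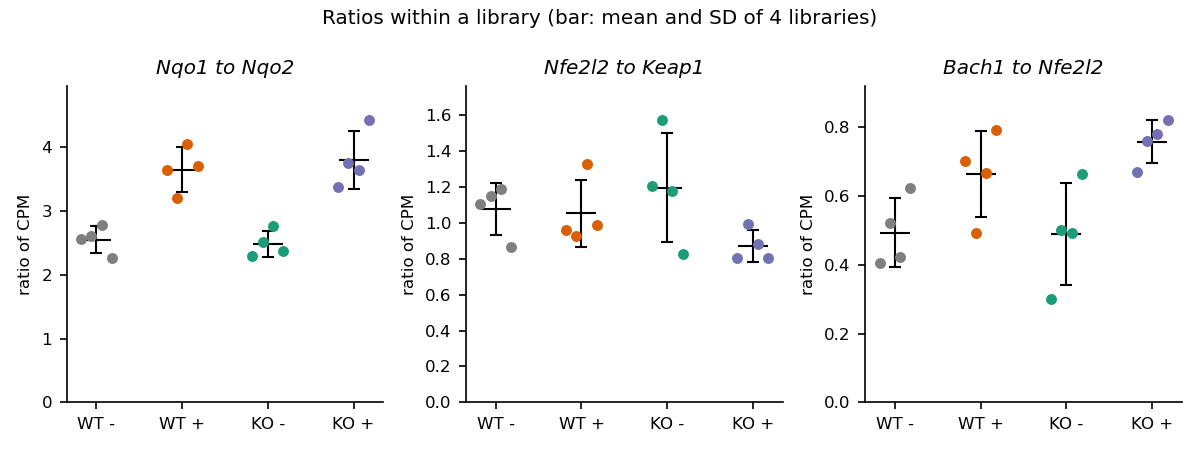
Ratio of CPM between pairs of the genes within each library (vertical axes, from 0) by group, with points for libraries and black bars for the mean and SD of 4. Nqo1 to Nqo2 was 2.52 ± 0.20 in the 8 untreated and 3.72 ± 0.38 in the 8 hydroquinone libraries, Nfe2l2 to Keap1 was 1.14 ± 0.23 and 0.96 ± 0.17 with overlap, and Bach1 to Nfe2l2 was 0.49 ± 0.12 and 0.71 ± 0.10 with overlap.

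The transcript of NRF2 itself did not pass the test in any comparison. Nfe2l2 (ENSMUSG00000015839, chromosome 2, 75675513 to 75704641, minus strand) stood at 87.3, 84.9, 98.1 and 67.8 CPM in untreated wild type and at 77.0, 84.8, 83.2 and 72.9 CPM with hydroquinone. Knockout libraries held 97.3, 99.7, 78.4 and 57.6 CPM untreated and 66.0, 86.2, 75.7 and 70.0 CPM with hydroquinone. Treated and untreated libraries overlapped in both genotypes. Its log2 fold change averaged over genotype was -0.12 (SE 0.11, edgeR adjusted p = 0.923), the lowest of the 9 genes. Nfe2l1 (ENSMUSG00000038615, chromosome 11, 96817414 to 96829968, minus strand) encodes the endoplasmic reticulum-bound relative that drives proteasome genes. It ranged from 434.7 to 582.0 CPM in the untreated libraries and from 402.9 to 567.0 CPM with hydroquinone, and its log2 fold change was -0.0058 (SE 0.084, edgeR adjusted p = 0.992).

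KEAP1 is the adaptor that senses electrophiles and marks NRF2 for degradation. Keap1 (ENSMUSG00000003308, chromosome 9, 21229730 to 21239361, minus strand) stood at 79.2, 74.0, 82.6 and 78.4 CPM in untreated wild type and at 80.2, 91.3, 62.7 and 73.7 CPM with hydroquinone. Its knockout values were 80.8, 63.4, 66.6 and 69.5 CPM untreated and 82.0, 86.8, 85.8 and 87.1 CPM with hydroquinone. The libraries overlapped in wild type (log2 fold change -0.029, SE 0.11) and did not overlap in the knockout, where the value was 0.29 (SE 0.11, unadjusted p = 0.017, edgeR adjusted p = 1.00) and did not pass. Of all tested genes, 1.18% were higher without overlap in that comparison of 4 with 4 libraries. Keap1 shares 510 exon bases with the antisense gene Gm16754, which averaged 9.88 counts against 2095.

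BACH1 represses antioxidant and heme genes. Bach1 (ENSMUSG00000025612, chromosome 16, 87698945 to 87733346, plus strand) stood at 35.3, 44.3, 41.5 and 42.3 CPM in untreated wild type and at 53.9, 41.7, 55.4 and 57.7 CPM with hydroquinone. In knockouts the values were 29.2, 49.8, 38.5 and 38.1 CPM untreated and 44.2, 65.5, 58.9 and 57.4 CPM with hydroquinone. In each genotype 1 hydroquinone library lay within the untreated range. The log2 fold change averaged over genotype was 0.45 (SE 0.11, unadjusted p = 0.0013, edgeR adjusted p = 0.520), which did not pass, nor did it with DESeq2, limma or summed eyes. Without the rod-rich library the average was 0.50 (SE 0.11, edgeR adjusted p = 0.140). The knockout value was then 0.64 (SE 0.16, edgeR adjusted p = 0.345), and neither passed. With any 1 library left out, the knockout value ran from 0.42 to 0.68.

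MAFG is a small MAF protein, the kind of partner NRF2 needs to bind DNA. Mafg (ENSMUSG00000051510, chromosome 11, 120625117 to 120633600, minus strand) ranged from 47.6 to 76.4 CPM in untreated and from 68.6 to 90.6 CPM in hydroquinone libraries. Its log2 fold change was 0.18 (SE 0.09, edgeR adjusted p = 0.901). Mafg shares 124 exon bases with Sirt7 on the same strand, which averaged 709.8 counts against 1912, so strand would not separate their reads there.

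SQSTM1, or p62, is a cargo receptor of autophagy that also binds KEAP1. Sqstm1 (ENSMUSG00000015837, chromosome 11, 50199366 to 50210827, minus strand) stood at 451.5, 425.7, 442.3 and 414.2 CPM in untreated wild type and at 470.9, 476.6, 475.3 and 502.6 CPM with hydroquinone. In the knockout it stood at 422.4, 390.2, 416.2 and 358.8 CPM untreated and at 440.3, 605.5, 631.5 and 631.4 CPM with hydroquinone. Libraries did not overlap within either genotype, and 1.13% and 1.18% of all tested genes were higher without overlap in wild type and knockout, while 1.78% and 0.728% were lower. Across genotypes they did overlap, because the 440.3 CPM of the rod-rich knockout library lay below the 451.5 and 442.3 CPM of 2 untreated wild-type libraries.

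The Sqstm1 log2 fold change was 0.35 averaged over genotype (SE 0.08, edgeR adjusted p = 0.297), 0.15 in wild type (SE 0.11, edgeR adjusted p = 0.994) and 0.54 in the knockout (SE 0.11, edgeR adjusted p = 0.324), none of which passed. Without the rod-rich library the knockout value was 0.65 (SE 0.09, edgeR adjusted p = 0.0095) and the average 0.40 (SE 0.06, edgeR adjusted p = 0.017), and both then passed. With any 1 library left out, the knockout value ran from 0.47 to 0.65 and the average from 0.31 to 0.40. DESeq2 also called Sqstm1 in the knockout (DESeq2 adjusted p = 0.0013) and on average (DESeq2 adjusted p = 0.0038). With both eyes added together and all libraries kept it did not pass (0.57 in the knockout, edgeR adjusted p = 1.00, and 0.37 on average, edgeR adjusted p = 0.991). With the rod score as covariate it did not pass (0.46 in the knockout, edgeR adjusted p = 0.258). Sqstm1 shares 580 exon bases with Mrnip on the opposite strand, which averaged 104.1 counts against 12690.

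**Figure D3:**
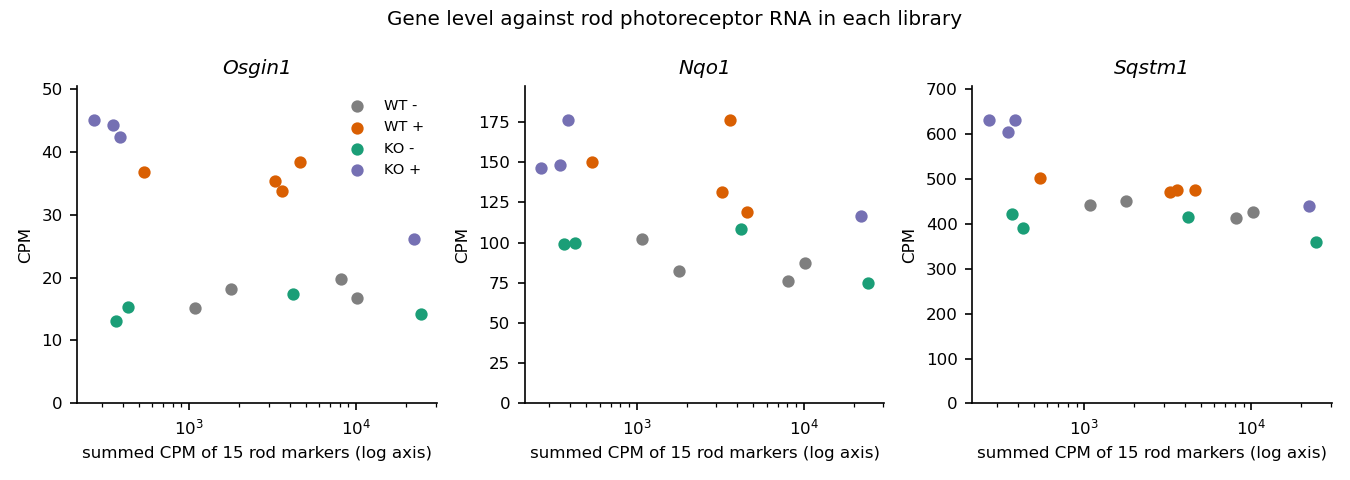
Level of Osgin1, Nqo1 and Sqstm1 in CPM (vertical axes, from 0) against the summed CPM of 15 rod markers (horizontal axes, log scale) in each of the 16 libraries, coloured by group (WT wild type, KO knockout, - untreated, + hydroquinone). The knockout hydroquinone library at 22220 CPM of rod markers had the lowest Osgin1, Nqo1 and Sqstm1 of its group, at 26.2, 116.4 and 440.3 CPM.

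Markers of other cells were compared between treatments, since a bulk level can move with tissue composition. None of the 15 rod markers passed with hydroquinone averaged over genotype, and all 15 had a log2 fold change below 0 (median -0.57). The group ranges of their summed level overlapped, at 1079 to 10200 CPM in untreated and 540.1 to 4599 CPM in treated wild type, and at 367 to 24340 and 268 to 22220 CPM in the knockout. Of 8 macrophage markers 7 had a log2 fold change above 0 (median 0.33) and none passed. Their summed level was 1207 to 2280 and 1822 to 3567 CPM in wild type and 1050 to 2517 and 1888 to 2889 CPM in the knockout. All 7 oligodendrocyte markers had a log2 fold change below 0 (median -1.95) and none passed, with summed levels of 695.2 to 6451 and 458.3 to 1673 CPM in untreated and treated wild type and of 662.1 to 3736 and 535.8 to 3840 CPM in the knockout. All 6 muscle markers were below 0 as well (median -0.36), while all 7 corneal epithelium (median 0.22), all 8 endothelium (0.11) and all 5 erythrocyte markers (0.17) were above 0, and none passed. Choroid melanocyte markers, 3 of 5 above 0, had summed levels without overlap in wild type, 4824 to 7864 CPM untreated and 3477 to 4139 CPM with hydroquinone, and with overlap in the knockout, 2618 to 6284 and 5169 to 5947 CPM. Of 14 markers of other neural retina cells 5 were above 0 (median -0.38), of 7 fibroblast and sclera markers 4 were (0.11), and of the 12 RPE markers 7 were (0.013), and none of these passed. With the rod score as covariate the average log2 fold changes of Osgin1 and Nqo1 were 1.17 and 0.62, and both passed (edgeR adjusted p = 1.7e-04 and 0.020). The part of RNA from the other cell types in these results was not tested.

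The genotypes were then compared. In wild type, 0 of the 9 genes passed with hydroquinone by edgeR (3 at an unadjusted p below 0.05 and higher, Osgin1, Nqo1 and Bach1, against 1.43% of all genes), 2 by DESeq2 and 1 by limma. In the knockout 1 of 9 passed by edgeR (5 at an unadjusted p below 0.05 and higher, against 2.07% of all genes), 2 by DESeq2 and 1 by limma. The shares of all genes called by edgeR were 0.0065% in wild type, 0.0% of them higher, and 0.0455% in the knockout. The difference between the genotypes' responses was tested as an interaction, in which 0 of 9 genes and 0.0% of all genes passed by edgeR, and none of the 9 by DESeq2 or limma. The log2 difference, knockout response minus wild-type response, was 0.39 for Sqstm1 (SE 0.16, unadjusted p = 0.027), 0.35 for Osgin1 (SE 0.22), 0.32 for Keap1 (SE 0.15) and -0.11 for Nqo1 (SE 0.22), with edgeR adjusted p = 1.00 for each. The responses were not shown to differ between genotypes, nor shown to be alike.

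**Figure D4:**
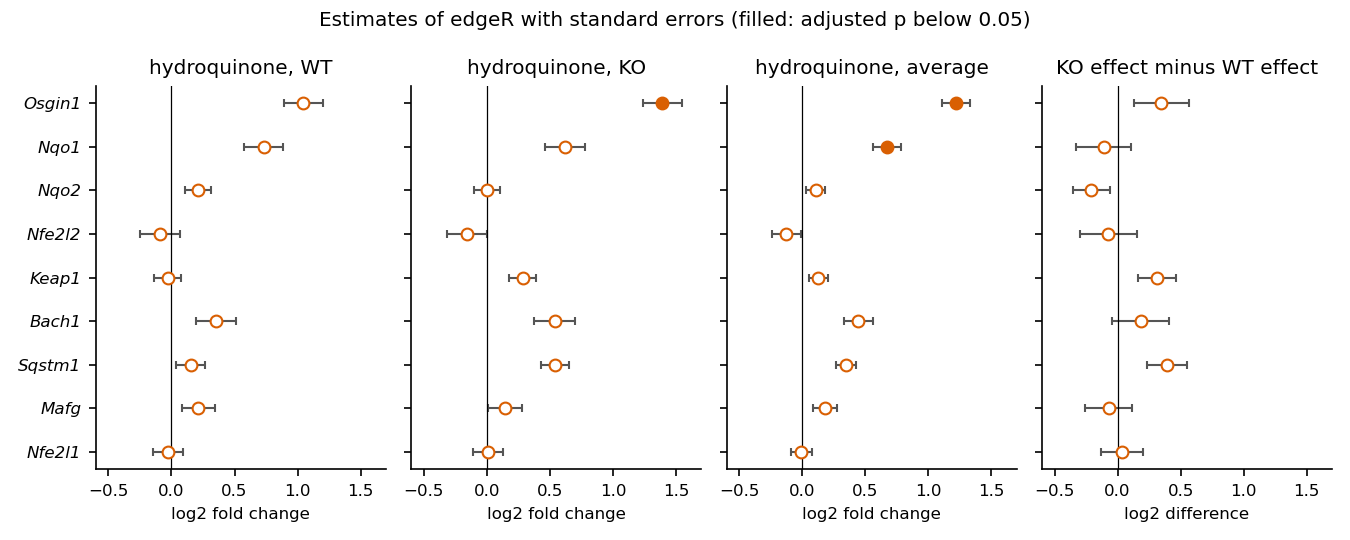
Log2 fold changes with hydroquinone (edgeR, horizontal axes) in wild type (WT), knockout (KO) and averaged over genotype, and the difference of the genotypes' responses, with bars for the standard error and filled points for an adjusted p below 0.05. Osgin1 lay farthest from 0 in the 3 hydroquinone panels, at 1.05, 1.39 and 1.22, and no point of the difference panel was filled.

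Knockout was then set against wild type. Of the 9 genes, 0 passed in untreated mice (edgeR, 0 at an unadjusted p below 0.05) and 0 under hydroquinone (edgeR, 1 at an unadjusted p below 0.05, Sqstm1), none passed by DESeq2 or limma, and 0.0% of all genes were called by edgeR in either comparison. Over all 15380 genes DESeq2 called 0 in untreated mice and 3 under hydroquinone, all 3 higher in the knockout. In untreated mice the log2 fold changes, knockout against wild type, ran from -0.22 for Osgin1 (SE 0.16) to 0.18 for Nqo2 (SE 0.10). Under hydroquinone they ran from -0.094 for Nfe2l2 (SE 0.158) to 0.26 for Sqstm1 (SE 0.11). Averaged over treatment they ran from -0.058 for Nfe2l2 to 0.089 for Nfe2l1. No gene of the 9 separated the genotypes without overlap. Of all genes, 0.384% were higher and 0.67% lower without overlap in untreated knockouts, and 1.72% and 0.605% under hydroquinone. These comparisons use the same libraries as those for hydroquinone.

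The rest of the pathway was read from lists of genes by role, given by counts and medians. These lists too were chosen with earlier results of these data known. Of 28 other NRF2 targets 5 rose with hydroquinone averaged over genotype and 0 fell (edgeR), against 0.0715% of all genes called higher. Of the 28, 19 had an unadjusted p below 0.05 and a higher level, against 2.75% of all genes, and the median log2 fold change was 0.35, against 0.0046 over all genes. With both eyes added together 3 passed on average, Gstm1, Srxn1 and Gclc (edgeR adjusted p = 0.014, 0.016 and 0.040), while Pgd and Txnrd1 did not (0.105 and 0.426). The 5 were Gstm1, Srxn1, Gclc, Pgd and Txnrd1. Gstm1, a glutathione S-transferase, had a log2 fold change of 0.59 in wild type and 1.07 in the knockout. Srxn1, sulfiredoxin, had 0.53 and 0.77. Gclc, the catalytic subunit of glutathione synthesis, had 0.72 and 0.74, and Pgd, an NADPH-producing dehydrogenase, had 0.54 and 0.80. Txnrd1, thioredoxin reductase, had an average of 0.63 (SE 0.11, edgeR adjusted p = 0.033). Each of the other 4 passed in the knockout and on average (edgeR adjusted p from 7.0e-04 to 0.034) and not in wild type (edgeR adjusted p from 0.114 to 0.536), where DESeq2 called all 4 (DESeq2 adjusted p from 2.75e-05 to 0.019). With both eyes added together Gstm1 alone of the 4 passed in the knockout (1.10, edgeR adjusted p = 0.019), and Srxn1, Gclc and Pgd did not (edgeR adjusted p = 0.065, 0.334 and 0.278).

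Among 11 other quinone and carbonyl reductases 1 rose, Cbr3, from 10.5 ± 2.5 to 22.3 ± 6.6 CPM in wild type and from 10.8 ± 2.5 to 21.8 ± 2.4 CPM in the knockout (SD, n = 4 libraries; average log2 fold change 1.05, SE 0.17, edgeR adjusted p = 0.026). With both eyes added together, 0 of these 11 genes passed (Cbr3 1.05, edgeR adjusted p = 0.271). The list's median was 0.053, against 0.0046 over all genes. The control machinery gave no call. With 0.0845% of all genes called on average, lists of this size would seldom hold one, so this does not set them apart. The lists were 16 genes of NRF2 degradation or control, 8 tested CNC, small MAF and co-activator genes, and 6 genes of NRF1 processing. They also held 31 proteasome subunits and 17 autophagy receptors and partners, and 0 passed by edgeR, DESeq2 or limma. Averaged over genotype these lists held 1, 0, 0, 0 and 1 genes at an unadjusted p below 0.05, all higher, against 2.75% of all genes. Their medians were 0.058, 0.097, 0.044, 0.033 and 0.033. The smallest p-values among them, none past the threshold, were those of Rxra (0.28, SE 0.08, edgeR adjusted p = 0.631), a nuclear receptor that can bind NRF2, and Tbk1 (0.14, SE 0.07, edgeR adjusted p = 0.869), the kinase that phosphorylates autophagy receptors. Pgam5, a KEAP1-binding mitochondrial phosphatase, stood at -0.17, Map1lc3a, an LC3 gene, at -0.19, Crebbp, a histone acetyltransferase that acts as co-activator, at 0.13 and Mafk, a small MAF, at 0.17. Ngly1, which deglycosylates NRF1, stood at 0.099 and Ubxn4 at 0.046, while the proteasome subunits Psmd2 and Psma3 stood at 0.087 and -0.11.

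**Figure D5:**
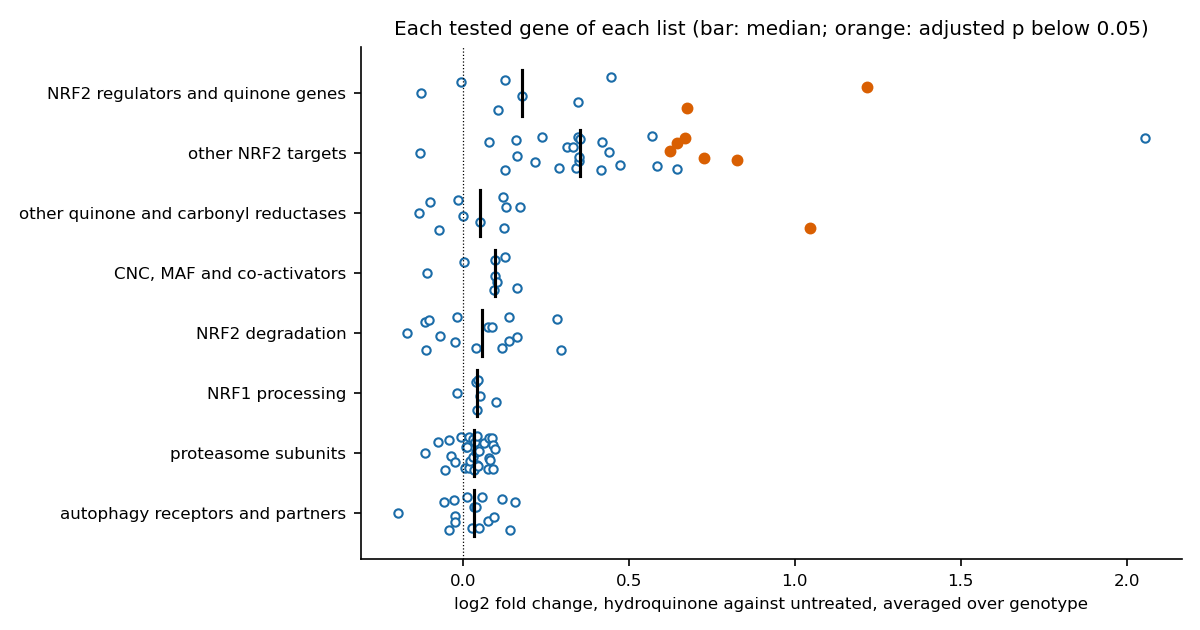
Log2 fold change with hydroquinone averaged over genotype (edgeR, horizontal axis) for each tested gene of the 9 and of 7 pathway lists (rows), with black bars for the medians and orange for an adjusted p below 0.05. The medians were 0.18 for the 9 genes, 0.35 for other NRF2 targets and between 0.033 and 0.097 for the remaining lists. Orange points stand only in the 3 upper rows. The row named NRF2 degradation also holds genes that control NRF2 in other ways.

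Genes whose pattern over the 16 libraries was most like that of Osgin1, by Pearson's r of log2(CPM + 1) over 15379 other genes, were Pgd (0.96), Mocs1 (0.93), Gclc (0.91) and Txnrd1 (0.90). For Nqo1 they were Gclc (0.93), Mocs1 (0.92), Cpxm2 (0.91) and Sytl3 (0.91). Of the 9 genes, Sqstm1 ranked number 8 for Osgin1 (0.85), Nqo1 number 13 (0.83) and Bach1 number 18 (0.80), whereas Nfe2l2 ranked 11527 (-0.23). For Nqo1, Osgin1 ranked number 21 (0.83), Sqstm1 number 51 (0.79), Bach1 number 77 (0.75), Nqo2 number 131 (0.72) and Nfe2l2 6918 (0.024). These values describe likeness only: the libraries share treatment groups, depth and, for 3 mice, an animal, and with the group means removed the r of Osgin1 with Nqo1 was 0.25 and with Sqstm1 0.73. The 0.73 leans heavily on the rod-rich knockout library, which lay far below its group in both genes. With Nfe2l2 the r of Osgin1 was then 0.030. For Nqo1 it was 0.84 with Nfe2l1, 0.83 with Nqo2 and 0.52 with Nfe2l2, but -0.34 with Keap1 and -0.29 with Mafg.

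The eyes of the same mouse gave a measure of spread within a mouse. The hydroquinone comparison rests on spread between mice, and each pair of eyes also mixed the identifier forms. In the 3 untreated mice with both eyes Osgin1 differed between the eyes by 0.12, 0.38 and 0.42 on the log2 scale of CPM. Nfe2l2 differed by 0.041, 0.53 and 0.31, and Sqstm1 by 0.085, 0.095 and 0.021. The Osgin1 difference with hydroquinone of 1.22 was larger than any of these, while the Nfe2l2 value of -0.12 was smaller in size than the difference between the eyes in 2 of the 3 mice.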

How the data were processed

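RNA of dissected RPE was sequenced in 16 libraries. The deposited values are whole-number counts per Ensembl gene in all cells, although the table's name announces FPKM, and they were used as counts. The submitters' processing notes name mm10, STAR, Cufflinks and DESeq2 without role or order, and which of them gave the counts, the annotation, the strand setting and duplicate handling are not given in the sources used here. Symbols, coordinates and exon lengths came from GENCODE vM21 (GRCm38), and 51633 of 51912 identifiers had a symbol.

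Genes averaging 1 CPM or more were tested (15380 genes, 99.8% of counts) with edgeR 4.0.16 (R 4.3.3), TMM scaling, 4 group means in 1 model and Benjamini-Hochberg adjustment over all tested genes, with an adjusted p below 0.05 as the threshold. There were 7 contrasts. Standard errors were derived from the F statistic. The script was tested on simulated counts. Alternatives used median-of-ratios scaling, no filter, DESeq2 1.42.0, limma 3.58.1 on log2(CPM + 1) with the mouse as a random block (consensus correlation of eyes -0.020), summed eyes, covariates, only the groups compared, and each library left out. Replicates were numbered by accession and are not paired.

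The 9 genes and all lists were chosen with earlier results of these data known. Named genes were the 9; Sucnr1; per list, up to 4 genes with the smallest p among those past the threshold with hydroquinone or, where none passed, the 2 with the smallest p on average; and the 4 genes most like Osgin1 and Nqo1. The motif TGACTCA was chosen after the windows were seen.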

Additional observations from a re-analysis of the deposited data

Results flagged for a closer look

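A search over 36 sets (9 genes in 4 groups) for a library far from the other 3 of its group used Dixon's ratio, for which chance alone gives about 1.8 sets. It found 3 values, all low and all in replicate 1 of knockout with hydroquinone, the library with 22220 CPM of rod markers. Osgin1 was at 26.2 CPM against 42.3 to 45.0 CPM in the other 3 libraries (Dixon's ratio 0.885). Sqstm1 was at 440.3 against 605.5 to 631.5 CPM (Dixon's ratio 0.883). Nqo2 was at 34.6 against 39.6 to 40.2 CPM (Dixon's ratio 0.912). In the same library 8 of the 9 genes had the lowest value of their group, and the exception was Mafg, at 79.4 against 71.0 to 77.9 CPM. The part of rod RNA in these 3 values was not tested. No gene of the 9 had a response to hydroquinone that differed between genotypes past the threshold.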

How the results depend on the processing

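Across the settings, 951 of the 1021 single-gene values kept their direction and side of the threshold, and 121 of the 147 counts of genes passing were equal to the count reported. The single-gene values include fits that left out a library outside the comparison, where the log2 fold change hardly moved. They also include values far from the threshold, which could hardly change side. The 147 counts include those of the interaction and of knockout against wild type, which were 0 in every setting. With 0 genes called by edgeR in these comparisons in the main fit, such counts could hardly change. All the counts that changed were those for hydroquinone. Of the 9 genes, the count passing in wild type was 0. It was 1 with median-of-ratios scaling, limma, the identifier form or the rod score, and 2 with DESeq2. In the knockout the count was 1, became 2 with DESeq2 and 0 with only the groups compared, and ran from 1 to 2 with a library left out. Averaged over genotype it was 2, became 3 with DESeq2, 1 with summed eyes, with eye side as covariate and without the 2 libraries with fewest detected genes (added after seeing the data), and ran from 1 to 3 with a library left out. In 13 of the fits with a library left out Nqo1 did not pass. Over all genes, 13 were called on average, 39 by DESeq2, 6 with summed eyes, 8 with eye side and 9 with no filter. In the knockout 7 were called, 14 by DESeq2 and 3 with summed eyes, and in wild type 1, with 20 by DESeq2 and 3 by limma. The causes were not tested.

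Signs turned only for values that did not pass. The largest of these in size in the main fit were Mafg in wild type (0.21) and Nfe2l2 in the knockout (-0.16). In libraries whose identifier holds a letter Mafg in wild type was at -0.054, Nfe2l1 in wild type at 0.081 and on average at 0.13, and Nfe2l2 in the knockout at 0.0998 and on average at 0.016. In plain-numbered libraries Nqo2 in the knockout was at -0.186 and on average at -0.021, and Nfe2l1 in the knockout at -0.185. Nqo2 in the knockout was at -0.0079 with median-of-ratios scaling, -0.0077 with DESeq2, -0.046 with the rod score and -0.018 with only the groups compared. Nfe2l1 in the knockout was at -0.033 with the rod score and -0.0078 with only the groups compared, and on average at 0.0023 with no filter, 0.028 with summed eyes and 0.024 without the 2 libraries with fewest detected genes. With a library left out, wild-type values ran from -0.122 to 0.057 for Keap1 and from -0.077 to 0.048 for Nfe2l1, and knockout values from -0.095 to 0.064 for Nqo2 and from -0.068 to 0.083 for Nfe2l1. The average for Nfe2l1 ran from -0.047 to 0.031, and knockout against wild type for Nfe2l2 from -0.108 to 0.014.

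No paired analysis was possible because no mouse is in both groups of a comparison and replicate numbers follow accession order. Fits of only the groups compared do not exist for averages and the interaction, which use all 4 groups. At 17 counts or fewer per library, Sucnr1 was too low for comparison.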
